A study of Drosophila melanogaster with 8 samples.

Results

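Muscle in the fly forms when single myoblasts commit to a muscle fate, fuse into multinucleate fibers and then assemble sarcomeres from actin and myosin filaments. The set described here holds 34 genes named for these steps: 9 myogenic and fusion genes, from the mesodermal transcription factor twi to the fusion factor blow, and 25 genes of the contractile apparatus. They were chosen by FlyBase symbol, current or older, and 32 of the 34 (8 myogenic and fusion, 24 contractile) were found among the 16845 genes of the count table. hbs and wupA were not analysed here, and Unc-89 was found under its current symbol Obsc.

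The terminalia (the genital and anal structures) were flushed out of the cut posterior end of male pupae that all carried the genotype yw;+;+, kept at the same temperature after the white pre-pupal stage. Poly-A RNA was sequenced in 4 libraries at 24 hr after puparium formation (APF) and 4 at 28 hr APF, with a separate terminalia sample behind every library. Cell types were not separated, so the cells that gave a transcript are not known. The libraries held 24534188 to 35795240 counted reads. Levels are given as rpkm, in which a gene's count is scaled by its unioned exon length and its library's total. Levels of different genes depend on the exon length used and are set side by side only on this scale. Differences between the time points were tested with edgeR's quasi-likelihood test on the raw counts, adjusted over all 11232 tested genes by the Benjamini-Hochberg method, and a gene is said to rise or fall where the adjusted p is under 0.05. Changes are given as log2 of the level at 28 hr APF over that at 24 hr APF.

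In fly muscle, twi marks the mesodermal and adult muscle precursors, and Mef2 switches on structural muscle genes. At fusion, the immunoglobulin-domain receptors Kirre and Rst on founder cells meet Sns and Hbs on fusion-competent myoblasts, and Mbc and Blow then act on the actin cytoskeleton at the contact. The sarcomere that follows is built from thick filaments of myosin and paramyosin, thin filaments of muscle actin with tropomyosin and troponin, Z-disc proteins of the Zasp and Mlp families, and the giant elastic proteins encoded by sls and bt.

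Transcripts of the myogenic and fusion genes were present in every library at both time points, whereas those of many contractile genes were scarce. The 8 myogenic and fusion genes had mean levels between 4.45 and 58.5 rpkm over the 8 libraries. Of the 24 contractile genes, 7 had a mean below 1 rpkm at both time points (Mhc, Act79B, TpnC41C, TpnC47D, Unc-89, Prm and fln), and 6 had a mean above 10 rpkm at 28 hr APF (Act87E, Act57B, Tm1, tmod, Mlc2 and TpnC73F). Mhc, the gene of the muscle myosin heavy chain, was covered by only 17 to 88 reads in a library. This defining marker of contracting muscle was thus at a low level in every library. The 7 listed terminalia transcription factors, among them cad, Abd-B, Poxn and dsx, had mean levels between 35.6 and 105 rpkm. The paper chose the factors of its atlas by their high levels in these same data, so this is no independent check of the tissue label.

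Of the 8 myogenic and fusion genes, all were tested, and 4 differed between the time points, 3 lower (twi, Mef2 and blow) and 1 higher (how) at 28 hr APF. Over all tested genes, 32.9% differed, 15.6% higher and 17.3% lower at 28 hr APF. The median log2 change of the 8 genes was -0.03, against 0.00 over all tested genes. In bulk RNA, fewer cells of a type and less RNA per cell cannot be told apart, here or in the results that follow.

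twi (FBgn0003900), a basic helix-loop-helix factor, lies on chromosome arm 2R of the BDGP6 assembly from 22985374 to 23048325. Its level was 20.4, 17.0, 22.4 and 19.1 rpkm in replicates 1 to 4 at 24 hr APF and 10.3, 8.40, 6.03 and 6.68 rpkm in replicates 1 to 4 at 28 hr APF. Every library at 28 hr APF lay below every library at 24 hr APF, and the mean fell from 19.7 ± 2.26 to 7.85 ± 1.91 rpkm (SD, n = 4 each). The log2 fold change was -1.30 (standard error 0.15, adjusted p = 9.25e-05 in edgeR's test), a level 2.46-fold lower at 28 hr APF. In the later annotation, 12.2% of its exon bases are shared with an antisense RNA, and the use of strand in counting is not stated.

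Mef2 (FBgn0011656), the MADS-box factor that drives muscle differentiation, fell less than twi. It was at 29.7, 31.3, 33.0 and 26.1 rpkm at 24 hr APF and at 24.7, 25.8, 21.5 and 22.9 rpkm at 28 hr APF (replicates 1 to 4). The ranges did not overlap, although the lowest library at 24 hr APF and the highest at 28 hr APF lay close together. The log2 fold change was -0.31 (standard error 0.07, adjusted p = 0.00557). how (FBgn0264491), an RNA-binding protein of the STAR family that acts in muscle and tendon cells, moved the other way. Its level was 38.4, 39.0, 39.6 and 37.6 rpkm at 24 hr APF and 42.7, 45.5, 44.1 and 41.5 rpkm at 28 hr APF, a log2 change of 0.20 (standard error 0.04, adjusted p = 0.00337), again without overlap.

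**Figure D1:**
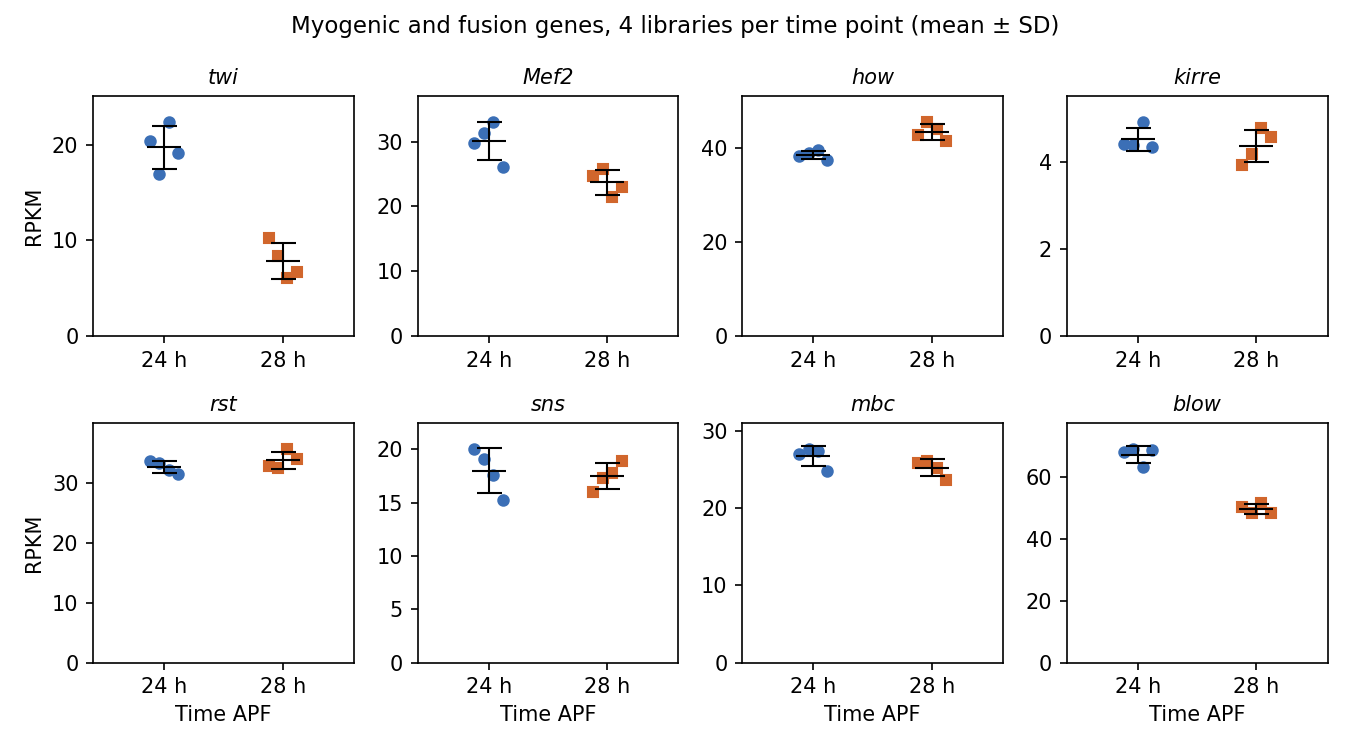
Levels in rpkm (y axes, each from 0) of the 8 myogenic and fusion genes at 24 and 28 h APF, with circles for the 4 libraries at 24 h, squares for the 4 libraries at 28 h, and bars for the mean and SD. The libraries of the time points separate for twi, Mef2, how and blow and overlap for kirre, rst, sns and mbc. Over all tested genes, the ranges do not overlap for 34.4%.

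The cell surface receptors of fusion showed no detectable change. kirre, at 4.36 to 4.93 rpkm at 24 hr APF and 3.95 to 4.78 rpkm at 28 hr APF, had a log2 change of -0.02 (standard error 0.07, adjusted p = 0.894). Its founder cell partner rst was several times higher at 31.5 to 33.6 rpkm and 32.5 to 35.6 rpkm, with a log2 change of 0.08 (standard error 0.05, adjusted p = 0.223). In single libraries rst stood at 33.6, 33.2, 32.1 and 31.5 rpkm at 24 hr APF and at 32.8, 32.5, 35.6 and 33.9 rpkm at 28 hr APF, with overlapping ranges. rst lies on the X chromosome from 2950399 to 2973834, within the span of kirre on the opposite strand, and their exons share no bases in BDGP6. sns, the receptor of fusion-competent myoblasts, ranged from 15.2 to 20.0 rpkm at 24 hr APF and from 16.0 to 18.9 rpkm at 28 hr APF, with a log2 change of -0.01 (standard error 0.08, adjusted p = 0.957). With these errors, changes of the size seen for twi would have stood out in all of these receptors, whereas smaller ones may have been missed.

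Of the genes that act inside the cell at the fusion site, blow fell and mbc did not pass the test. blow (FBgn0004133), a pleckstrin-homology protein of the actin-rich fusion site, was the most abundant of the 8 genes, with 68.1, 69.2, 63.2 and 68.7 rpkm at 24 hr APF and 50.3, 48.5, 51.6 and 48.3 rpkm at 28 hr APF. The libraries fell into separate ranges, and the log2 fold change was -0.41 (standard error 0.05, adjusted p = 0.000139). mbc, a guanine nucleotide exchange factor for Rac, was at 24.8 to 27.7 rpkm at 24 hr APF and 23.7 to 26.1 rpkm at 28 hr APF (log2 fold change -0.05, standard error 0.05, adjusted p = 0.428).

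Other genes of muscle commitment were read off the same fit. Of 14 listed myogenic genes, 11 passed the filter on low counts and 5 differed, 4 lower and 1 higher at 28 hr APF, with a median log2 change of -0.11. The share over all tested genes was 32.9%, with 17.3% lower. Him, which holds muscle precursors in an undifferentiated state and opposes Mef2, was at 65.4, 66.0, 57.7 and 80.5 rpkm at 24 hr APF and at 29.5, 27.8, 24.4 and 23.8 rpkm at 28 hr APF. Its log2 change of -1.33 (standard error 0.11, adjusted p = 1.34e-05) was close to that of twi. The mesodermal FGF receptor htl and its adaptor stumps fell too, with log2 fold changes of -0.47 (adjusted p = 0.00259) and -0.54 (adjusted p = 0.0121). zfh1, a repressor of muscle differentiation, fell by 0.43 on the log2 scale (adjusted p = 0.0362). salm, which specifies fibrillar flight muscle and is also used in epithelia, rose by 0.31 (adjusted p = 0.0419). Both had overlapping ranges and were named after their values were seen. lmd, the zinc-finger factor that sets the fate of fusion-competent myoblasts, stood at 40.0 ± 6.49 and 37.3 ± 5.99 rpkm (SD, n = 4 each), with an adjusted p of 0.72. nau, the fly member of the MyoD family, had only 2 to 7 reads in a library and was not tested (also named after its values were seen).

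In the list of 14 other fusion genes, 1 differed between the time points, beside 32.9% of all tested genes. This was sing, which encodes a membrane protein needed for fusion. It was at 41.8 ± 4.06 rpkm at 24 hr APF and 35.6 ± 2.37 rpkm at 28 hr APF (SD, n = 4 each), a log2 change of -0.20 (standard error 0.06, adjusted p = 0.0356), and the ranges overlapped. The most abundant were general signalling genes that most cells use, Crk at 167 ± 12.6 and 162 ± 12.2 rpkm and the GTPase gene Rac1 at 88.9 ± 1.46 and 84.1 ± 3.91 rpkm (SD, n = 4 each). The median of this list was 0.01 on the log2 scale.

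The contractile genes gave a different picture. Of the 24 found, 22 passed the filter on low counts, and 15 of these differed between the time points, 12 higher and 3 lower at 28 hr APF, beside 15.6% higher and 17.3% lower over all tested genes. The ranges of the libraries did not overlap for 12 of the 22, beside 34.4% of all tested genes. The median log2 change of the 22 was 0.44, against 0.00 over all tested genes, and single genes ran from -1.78 for Mhc to 2.57 for Tm2. TpnC47D and fln did not pass the filter. TpnC41C passed it only through its reads at 28 hr APF, reaching the minimum in 1 of 4 libraries at 24 hr APF, so that its call is no support for a rise. It is also among the 12 genes without overlap and is counted in the median, and its part in these is no support either. Of the other 21, 14 differed, 11 higher and 3 lower.

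**Figure D2:**
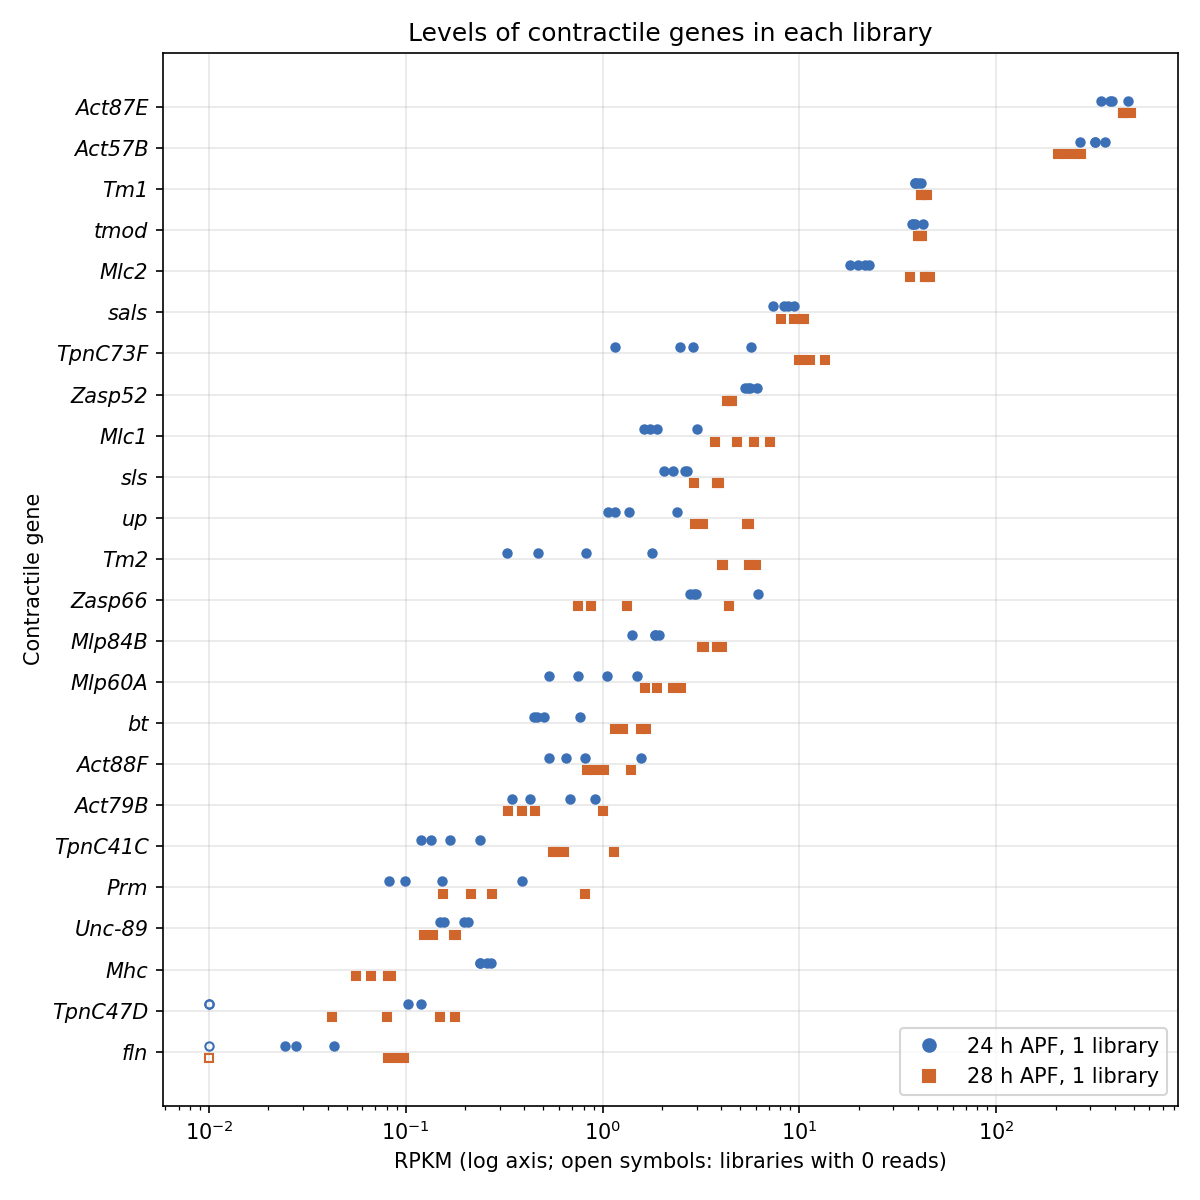
Levels in rpkm (log x axis) of the 24 contractile genes, ordered by their mean over all libraries, with circles for the 4 libraries at 24 h APF and squares for the 4 at 28 h; open symbols at the left edge stand for libraries without reads. Mean levels over all libraries span from 0.0456 rpkm for fln to 423 rpkm for Act87E. The squares lie to the right of the circles for Mlc2, TpnC73F, Mlc1, up, Tm2, bt, sls, Mlp84B, Mlp60A and TpnC41C. They lie to the left for Mhc and Zasp52. TpnC41C passed the filter on low counts only through its reads at 28 h, so its position is no support for a rise.

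Among the thick filament genes, both myosin light chains rose from 24 to 28 hr APF while the heavy chain fell. Mlc2 (FBgn0002773), the regulatory light chain on arm 3R from 30171438 to 30174551, was at 18.0, 21.4, 22.5 and 19.8 rpkm at 24 hr APF and at 43.5, 45.9, 36.6 and 43.3 rpkm at 28 hr APF. The lowest library at 28 hr APF was well above the highest at 24 hr APF, and the log2 fold change was 1.08 (standard error 0.07, adjusted p = 5.65e-06), a 2.12-fold rise. Mlc1 (FBgn0002772), the alkali light chain, was at 1.74, 1.61, 3.01 and 1.90 rpkm and then at 4.79, 7.11, 3.70 and 5.89 rpkm, a log2 change of 1.41 (standard error 0.23, adjusted p = 0.00109). The light chains thus stood at unlike levels but had no overlap between time points in either case.

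Mhc (FBgn0264695), on arm 2L from 16766566 to 16788766, was at 0.257, 0.238, 0.239 and 0.271 rpkm at 24 hr APF and at 0.0843, 0.0814, 0.0662 and 0.0555 rpkm at 28 hr APF. It was near the bottom of the contractile genes, and its replicates lay close together at both time points. The log2 fold change was -1.78 (standard error 0.21, adjusted p = 0.000127), a level 3.42-fold lower at 28 hr APF, at 17 to 88 reads in a library. Prm, the paramyosin of the thick filament core, was at 0.0823, 0.152, 0.391 and 0.0991 rpkm and at 0.154, 0.813, 0.274 and 0.215 rpkm. Its log2 change of 1.05 had a standard error of 0.60 and an adjusted p of 0.215. Leaving out replicate 2 at 28 hr APF brought it to 0.29, and leaving out replicate 3 at 24 hr APF to 1.74. fln, the thick filament protein of the indirect flight muscles, had 0 to 4 reads in a library. With 0 reads, replicate 2 at 24 hr APF and replicate 3 at 28 hr APF allow up to 0.0941 and 0.0769 rpkm (3 reads, counting error only), and 61.6% of its exon bases are shared with an antisense RNA.

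The muscle actins were the most abundant and the least uniform of the thin filament genes. Act87E (FBgn0000046) was at 388, 377, 465 and 341 rpkm at 24 hr APF and at 486, 442, 438 and 450 rpkm at 28 hr APF, and its log2 fold change was 0.24 (standard error 0.07, adjusted p = 0.0292). The ranges overlapped through replicate 3 at 24 hr APF, and the call was lost in 7 of the 8 fits that left out 1 library (adjusted p between 0.0572 and 0.0782) and without normalization factors (adjusted p = 0.0701). Act57B (FBgn0000044) went the other way, from 317, 318, 356 and 267 rpkm to 269, 247, 224 and 205 rpkm. Its log2 fold change was -0.38 (standard error 0.09, adjusted p = 0.00858), and its ranges overlapped only through replicate 4 at 24 hr APF and replicate 1 at 28 hr APF. Both are muscle actins, of larval and other non-flight muscles.

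Act87E exceeded Act57B in every library, and by more at 28 hr APF. The ratio of their rpkm values was 1.23, 1.18, 1.31 and 1.28 at 24 hr APF and 1.80, 1.79, 1.96 and 2.20 at 28 hr APF. All libraries at 28 hr APF lay above all at 24 hr APF. The pair was chosen after its values were seen, and the ratio is given as a description, with no test. The actin genes are closely related, though their sequences were not compared here. How reads with several alignments were counted is not stated, and the cytoplasmic actins were far more abundant, so these levels are uncertain. Act5C, a cytoplasmic actin of all cells, was at 1909 ± 40.5 rpkm at 24 hr APF and 1649 ± 46.4 rpkm at 28 hr APF, and Act42A, the other cytoplasmic actin, at 1395 ± 39.0 and 1247 ± 37.8 rpkm (SD, n = 4 each).

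The other muscle actins of the set were scarce. Act88F, the actin of the indirect flight muscles, ranged from 0.533 to 1.56 rpkm at 24 hr APF and from 0.834 to 1.40 rpkm at 28 hr APF (log2 fold change 0.26, standard error 0.33, adjusted p = 0.597). Act79B, an actin of adult tubular muscle, ranged from 0.345 to 0.915 rpkm and from 0.329 to 1.01 rpkm (log2 fold change -0.08, standard error 0.43, adjusted p = 0.918). Act79B had 17 to 49 reads in a library and Act88F 27 to 70, and changes within these wide errors were not detectable.

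Tropomyosin and troponin, which gate the thin filament by calcium, held the largest rises of the set. Tm2 (FBgn0004117) lies on arm 3R from 15310193 to 15315197, directly beyond Tm1 from 15278220 to 15308779. Tm2 was at 0.819, 0.328, 1.78 and 0.470 rpkm at 24 hr APF and at 4.07, 5.57, 4.03 and 6.01 rpkm at 28 hr APF, so that the lowest library at 28 hr APF stood well above the highest at 24 hr APF. The log2 fold change was 2.57 (standard error 0.40, adjusted p = 0.00067), and without replicate 3 at 24 hr APF it was 3.18. Tm1 (FBgn0003721), which also encodes tropomyosins of cells other than muscle, was at 38.7, 41.5, 40.1 and 38.7 rpkm and at 41.6, 44.0, 44.6 and 41.3 rpkm. Its log2 change of 0.14 (standard error 0.04, adjusted p = 0.0323) was small, its ranges overlapped, and the call was lost in 5 of the 8 fits that left out 1 library (adjusted p between 0.071 and 0.0936) and without normalization factors (adjusted p = 0.0578). The ratio of Tm2 to Tm1, also chosen after its values were seen, was 0.0214 ± 0.0163 at 24 hr APF and 0.115 ± 0.0255 at 28 hr APF (SD, n = 4 each), without overlap. Its level rests on the unioned exon length, since the length of the longest transcript would raise Tm1 by 3.21 times and Tm2 by 1.32 times at both time points.

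up (FBgn0004169), the troponin T gene on the X chromosome, was at 1.07, 1.16, 2.38 and 1.36 rpkm at 24 hr APF and at 2.93, 5.43, 3.24 and 5.53 rpkm at 28 hr APF. All libraries at 28 hr APF were above those at 24 hr APF, replicate 3 at 24 hr APF coming nearest, and the log2 fold change was 1.55 (standard error 0.28, adjusted p = 0.00189). The troponin C genes, which encode the calcium sensor, stood at very different levels. TpnC73F (FBgn0010424) led them, at 2.88, 2.46, 5.70 and 1.16 rpkm and then at 11.3, 13.5, 9.98 and 10.2 rpkm, a log2 change of 1.93 (standard error 0.35, adjusted p = 0.00172). TpnC41C (FBgn0013348) rose from a much lower level, from 0.167, 0.238, 0.134 and 0.119 rpkm to 0.575, 0.561, 0.638 and 1.15 rpkm, a log2 change of 2.19 (standard error 0.35, adjusted p = 0.00081) on 7 to 73 reads in a library. As it passed the filter only through the libraries where it was high, neither its p nor its separate ranges are support for the rise. The ranges of TpnC73F did not overlap either. TpnC47D had 0 to 4 reads in a library and was not tested. Its replicates 3 and 4 at 24 hr APF had no read, which allows up to 0.137 and 0.106 rpkm.

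The genes of thin filament ends changed little. tmod, the pointed-end capping protein tropomodulin, which also acts outside muscle, was at 37.2 to 42.5 rpkm at 24 hr APF and 40.0 to 41.7 rpkm at 28 hr APF (log2 fold change 0.10, standard error 0.04, adjusted p = 0.0984). sals, which lengthens thin filaments at the same end, was at 7.37 to 9.33 and 8.10 to 10.5 rpkm (log2 fold change 0.21, standard error 0.09, adjusted p = 0.108). For both, leaving out 1 library brought the adjusted p to 0.0334 (tmod, without replicate 3 at 24 hr APF) and 0.0338 (sals, without replicate 2 at 28 hr APF).

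**Figure D3:**
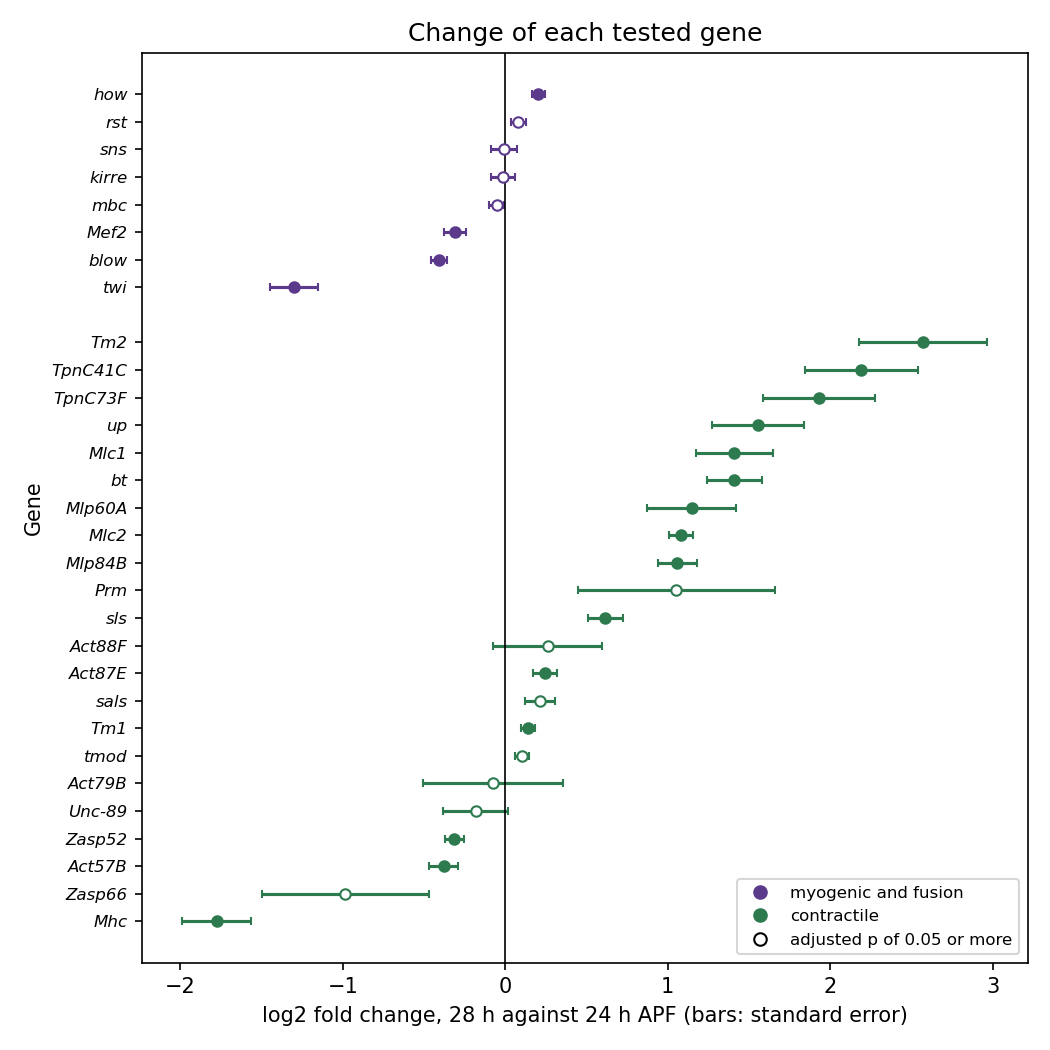
log2 fold changes at 28 h against 24 h APF (x axis, bars for the standard error) of the 30 tested genes, in purple for the 8 myogenic and fusion genes and green for the 22 contractile genes, with filled points for an adjusted p under 0.05. Tm2, at 2.57, and TpnC41C, at 2.19, lie farthest to the right, and Mhc, at -1.78, and twi, at -1.30, farthest to the left. TpnC41C passed the filter on low counts only through its reads at 28 h, so its filled point is no support for a rise.

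The elastic filament genes that tie thick filaments to the Z disc rose. bt (FBgn0005666), which encodes projectin and lies on chromosome 4, was at 0.448, 0.505, 0.767 and 0.466 rpkm at 24 hr APF and at 1.16, 1.57, 1.27 and 1.67 rpkm at 28 hr APF. Its exons span 28019 bases, so these low levels rest on 347 to 1580 reads in a library, and the log2 fold change was 1.41 (standard error 0.17, adjusted p = 0.000141). sls (FBgn0086906), the titin-like gene of Sallimus and kettin, was at 2.63, 2.28, 2.70 and 2.05 rpkm and at 2.92, 3.80, 3.86 and 3.88 rpkm, a log2 change of 0.61 (standard error 0.11, adjusted p = 0.00143). The ranges of sls did not overlap, with replicate 1 at 28 hr APF close to the libraries at 24 hr APF. Unc-89, the obscurin of the M line, was at 0.150 to 0.206 and 0.123 to 0.181 rpkm and did not pass the test (log2 fold change -0.18, standard error 0.20, adjusted p = 0.533).

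At the Z disc, the muscle LIM proteins rose and Zasp52 fell. Mlp84B (FBgn0014863) was at 1.94, 1.85, 1.84 and 1.41 rpkm at 24 hr APF and at 3.26, 3.83, 3.20 and 4.02 rpkm at 28 hr APF (log2 fold change 1.06, standard error 0.12, adjusted p = 9.52e-05). Mlp60A (FBgn0259209) was at 0.532, 0.747, 1.50 and 1.05 rpkm and at 1.88, 2.26, 1.64 and 2.51 rpkm (log2 fold change 1.15, standard error 0.27, adjusted p = 0.00882). Both had separate ranges, those of Mlp60A being close. Zasp52 (FBgn0265991), a PDZ and LIM domain protein that also acts at integrin junctions of other cells, was at 5.46, 5.63, 5.28 and 6.08 rpkm and at 4.26, 4.56, 4.50 and 4.35 rpkm. It was lower in all libraries at 28 hr APF, with a log2 change of -0.31 (standard error 0.06, adjusted p = 0.00217).

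Zasp66, a smaller Z-disc protein of the same family, varied between libraries within each time point. It was at 2.91, 2.99, 6.13 and 2.78 rpkm at 24 hr APF and at 0.747, 4.40, 1.33 and 0.872 rpkm at 28 hr APF. All libraries at 28 hr APF but replicate 2 lay below every library at 24 hr APF. Replicate 3 at 24 hr APF and replicate 2 at 28 hr APF stood above the others of their time point, as they did for Prm. The log2 change of -0.98 had a standard error of 0.51 and an adjusted p of 0.173, and without replicate 2 at 28 hr APF it was -1.88 with an adjusted p of 0.00277.

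Summed over the 24 contractile genes, the level was 2355, 2341, 2668 and 2132 CPM (counts scaled to the library's total) at 24 hr APF and 2622, 2617, 2538 and 2540 CPM at 28 hr APF, with overlapping ranges. Act87E, Act57B, Tm1, tmod and sls, the 5 highest by CPM, took 87.6% to 92.4% of this sum. CPM is not scaled by exon length, and sls, with 58996 exon bases, had a mean of only 3.01 rpkm. Without these 5 genes the sum of the other 19 went from 180, 188, 224 and 183 CPM to 275, 323, 268 and 311 CPM, 1.52 times as high in the mean and without overlap. Of these 19, Mlc2 added the most to the rise, with 1201 to 1618 reads in a library at 24 hr APF and 2509 to 3351 at 28 hr APF. Its mean went from 20.4 to 42.3 rpkm. A large part of the rise of the sum came from this gene, so the rise was not shared evenly. The 5 genes were left out after their values were seen. Without the 4 actins the sum of the other 20 went from 993 to 1126 CPM at 24 hr APF to 1188 to 1309 CPM at 28 hr APF.

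**Figure D4:**
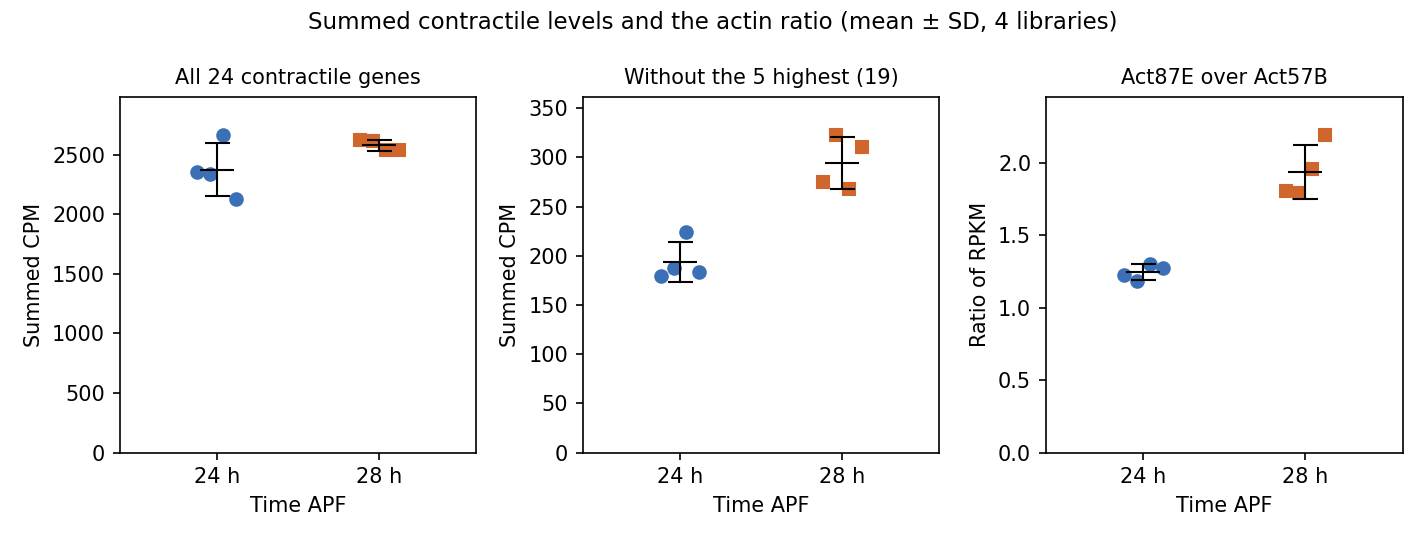
Summed CPM of the 24 contractile genes (left), of the 19 that remain without the 5 highest by CPM (middle), and the ratio of Act87E to Act57B rpkm (right), at 24 and 28 h APF, with points for the 4 libraries of each time point, bars for the mean and SD, and y axes from 0. The time points overlap on the left and separate in the middle (180 to 224 CPM against 268 to 323 CPM) and on the right (1.18 to 1.31 against 1.79 to 2.20).

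Replicate 3 at 24 hr APF stood apart among the contractile genes. It was the highest of the 4 libraries at 24 hr APF for 16 of the 22 tested genes, and its level was 3.52 times the mean of the other 3 for Prm, 3.31 times for Tm2 and 2.63 times for TpnC73F. In the same library the 7 listed fat body genes, such as Lsp2, summed to 163 CPM against 38.4 to 61.3 CPM in the others, and the 7 hemocyte genes to 151 CPM against 108 to 119 CPM. Their part in the contractile levels was not tested. Without this library 15 contractile genes still differed, 12 higher and 3 lower, with tmod in and Tm1 out. No library at 28 hr APF was the highest for more than 8 of the 22.

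Of 22 other muscle genes listed, 20 were tested and 6 differed, all 6 higher at 28 hr APF, with a median log2 change of 0.14. Over all tested genes 32.9% differed and 15.6% were higher, so the share that differed was near the background. Strn-Mlck, which encodes a stretchin and myosin light chain kinase protein, rose from 0.767 ± 0.108 to 1.83 ± 0.187 rpkm (log2 fold change 1.29, adjusted p = 9.17e-06), and the formin DAAM from 20.1 ± 4.08 to 51.1 ± 7.71 rpkm (log2 fold change 1.39, adjusted p = 8.44e-05; SD, n = 4 each). Fhos, another formin of thin filament assembly, rose by 0.33 on the log2 scale (adjusted p = 0.00231). DAAM and Fhos also act outside muscle. The most abundant genes of the list were Argk1, the arginine kinase of energy-demanding tissues, at 952 ± 90.0 and 1045 ± 78.1 rpkm, and the actin capping gene cpa at 103 ± 2.56 and 101 ± 1.64 rpkm (SD, n = 4 each). Neither passed edgeR's test (adjusted p = 0.0822 and 0.953), while DESeq2 called Argk1 higher at 28 hr APF (adjusted p = 0.0428).

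**Figure D5:**
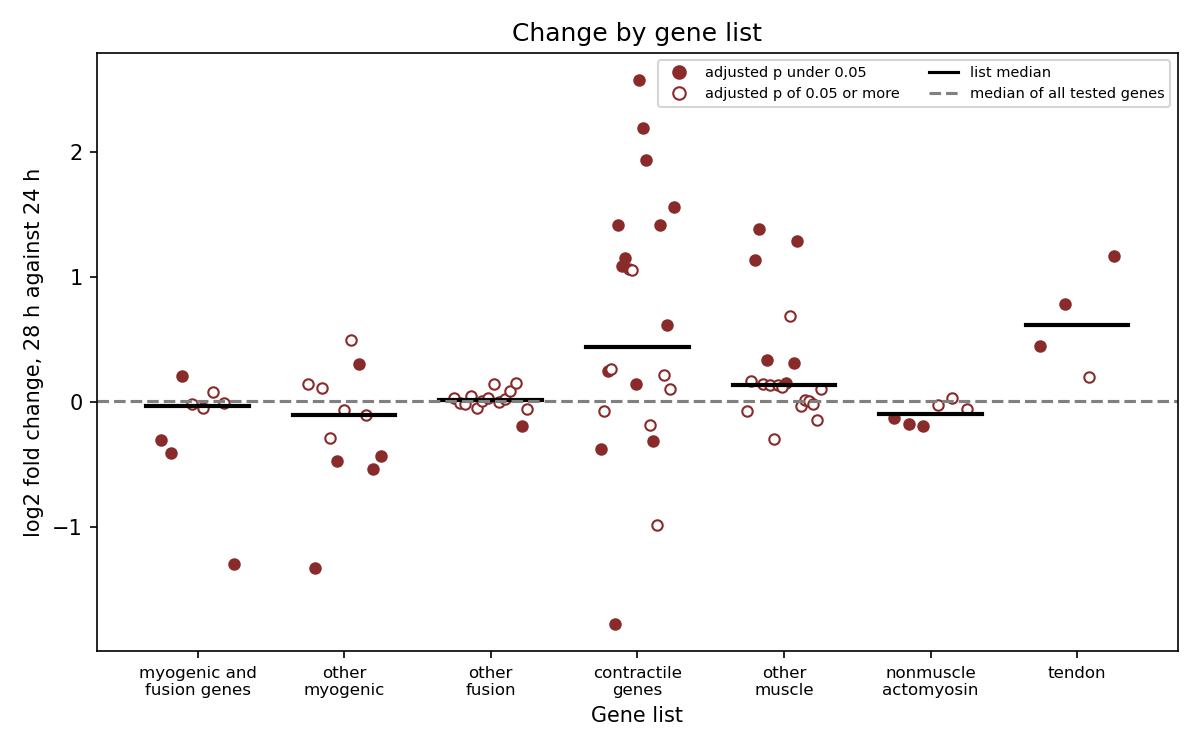
log2 fold changes at 28 h against 24 h APF (y axis) of the tested genes of 7 lists (x axis), with filled points for an adjusted p under 0.05, black lines for list medians and a dashed line for the median of all tested genes. The medians are 0.44 for the contractile genes, 0.14 for the other muscle genes and 0.61 for the tendon genes, and lie at or below 0.01 for the remaining lists. The contractile median includes TpnC41C, which passed the filter on low counts only through its reads at 28 h.

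Of 6 nonmuscle actomyosin genes tested, 3 differed, all 3 lower at 28 hr APF, beside 17.3% lower over all tested genes: Act5C (log2 fold change -0.18, adjusted p = 0.0137), Act42A (-0.13, adjusted p = 0.0261) and the cytoplasmic myosin light chain Mlc-c (-0.20, adjusted p = 0.00557). The actin-severing cofilin gene tsr was at 2236 ± 87.9 and 2098 ± 83.1 rpkm (SD, n = 4 each) and did not pass the test.

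Tendon cells and neurons contact muscle, and their marker genes were read off the same fit, in which 15.6% of all tested genes were higher at 28 hr APF. Of 4 tendon genes, 3 rose: the tendon fate factor sr from 4.86 ± 0.666 to 10.6 ± 1.26 rpkm, the muscle attachment protein gene Tsp from 81.6 ± 9.81 to 137 ± 8.96 rpkm, and Lrt from 8.87 ± 0.179 to 11.8 ± 0.595 rpkm (SD, n = 4 each; log2 fold changes 1.16, 0.78 and 0.45, adjusted p = 1.96e-05, 6.02e-05 and 0.000137). The fourth, slow, whose product binds that of Tsp, did not pass the test (log2 fold change 0.20, adjusted p = 0.192). The tendon genes summed to 558 to 687 CPM at 24 hr APF and 934 to 1006 CPM at 28 hr APF, and none was at 0. Of 7 neuronal genes tested, 6 rose, and the list summed to 138 to 159 CPM and 169 to 225 CPM, with none at 0. The smallest adjusted p values of the list were those of the cytoskeletal gene futsch (log2 fold change 0.53, adjusted p = 0.00187), the synaptic vesicle gene nSyb (0.70, adjusted p = 0.00237) and the synapsin gene Syn (0.67, adjusted p = 0.0114), and the neuronal RNA-binding gene elav, the most abundant with futsch, rose by 0.27. Of the 7 terminalia factors, 5 also rose (Abd-B, Poxn, cad, opa and dsx). The log2 changes of all 7 lay between 0.18 and 0.33, and they summed to 2164 to 2346 CPM and 2449 to 2693 CPM.

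Among 4 glial genes Gli, which also acts at epithelial junctions and was the most abundant, rose (log2 fold change 0.26, adjusted p = 0.0042), beside 15.6% higher over all tested genes. The blood-brain barrier gene moody did not pass the test (0.15, adjusted p = 0.382). Neither did repo, whose log2 change was negative (-0.39, adjusted p = 0.263), nor alrm (0.14, adjusted p = 0.613). The glial genes summed to 385 to 420 CPM and 407 to 481 CPM, most of it from Gli. Of 5 fat body genes tested, the larval serum protein gene Lsp1gamma fell (-1.72, adjusted p = 0.000137), beside 17.3% lower over all tested genes. Lsp2 stood at 12.4 ± 15.7 and 12.6 ± 5.15 rpkm (SD, n = 4 each). Fat body genes summed to 38.4 to 163 CPM and 32.3 to 76.6 CPM, with 2 of the 7 at 0 reads in some library.

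Over all tested genes, 32.9% differed in edgeR. No hemocyte gene of 6 tested differed in edgeR (2 had an unadjusted p under 0.05) or in DESeq2 (0 called). The scavenger receptor gene crq led them at 31.3 ± 1.98 and 28.3 ± 1.34 rpkm and the peroxidasin gene Pxn followed at 2.29 ± 0.411 and 2.67 ± 0.176 rpkm (SD, n = 4 each), with sums of 108 to 151 CPM and 107 to 114 CPM. Of 6 testis genes, 2 were tested and edgeR called 0 (0 at an unadjusted p under 0.05, and 0 of these 2 by DESeq2), sa at 2.76 ± 0.928 and 2.51 ± 0.877 rpkm and fzo at 0.857 ± 0.0376 and 0.881 ± 0.384 rpkm (SD, n = 4 each). They summed to 4.28 to 6.28 CPM and 4.77 to 8.57 CPM, with 4 of the 6 at 0 reads in some library. DESeq2, run without that filter, called dj and Mst87F of the untested testis genes higher at 28 hr APF (adjusted p = 0.0158 and 0.00348), at up to 53 and 68 reads in a library (named after their values were seen). The part of these cell types in the contractile and myogenic results was not tested.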

How the data were processed

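The authors prepared poly-A libraries from single pupae, aligned the reads to dm3 with tophat (TopHat2 2.0.13 in the submitters' processing notes), counted reads in unioned exons of FlyBase genes with bedtools, and deposited raw counts for 16845 identifiers, without normalization. The treatment of strand, overlapping genes and several alignments is not given in the sources used here. A read counted on overlapping genes may add to each.

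Names, coordinates and exon lengths came from Ensembl release 115 (BDGP6, not the authors' assembly), matched by identifier (16431 of 16845, the other 414 holding 8.07% to 8.44% of the counts of a library). Of 134 listed genes, 129 were matched. rpkm used the unioned exon length and the total count (24534188 to 35795240). No protein or promoter sequences were used here.

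Counts were tested with edgeR 4.0.16 in R 4.3.3 (TMM, filterByExpr with a minimum of 10, quasi-likelihood test, Benjamini-Hochberg, threshold 0.05), after a test on simulated data. Standard errors were derived from the log2 fold change and the square root of its F statistic. Levels and sums were computed in Python 3.11.15. Replicates of a time point all differed by more than sampling noise. The members and lists were chosen with earlier results of these data known. Values in every library are given for members past the threshold and for the 3 most abundant of each group. Of other lists, the called genes (at most 3, by adjusted p) and the 2 most abundant are named. Alternatives were other normalizations (RLE, upper quartile, total counts), no filter, DESeq2 1.42.0, the replicate number as a block, leaving out each library, the longest transcript as length, and effective library sizes. Leaving out the actins or the members highest by CPM from a sum was chosen after seeing the data.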

Additional observations from a re-analysis of the deposited data

Results flagged for a closer look

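In 5 of 74 groups of 4 libraries examined (the members, their sums and 2 ratios at each time point), 1 library lay beyond Dixon's critical value for 4 values, where chance gives about 3.7. At 24 hr APF, replicate 3 was highest for kirre, at 4.93 rpkm against 4.36 to 4.43 in the others, and for Zasp66, at 6.13 rpkm against 2.78 to 2.99. At 28 hr APF, replicate 2 was highest for Zasp66, at 4.40 rpkm against 0.747 to 1.33, replicate 4 was highest for TpnC41C, at 1.15 rpkm against 0.561 to 0.638, and replicate 1 was lowest for sls, at 2.92 rpkm against 3.80 to 3.88.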

How the results depend on the processing

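Of the 19 members called, 17 kept their call and direction in all 14 alternative fits, and Act87E and Tm1 lost it in 8 and 6. The 17 include TpnC41C, which passed the filter on low counts only through its reads at 28 hr APF, so its call is no support. Members called stayed at 4 of the myogenic and fusion genes in every fit, and between 13 and 15 of the contractile genes. Genes called over all tested lay between 3121 and 3435 when a library was left out, at 3792 with total counts only and 3998 with DESeq2. kirre, sns and Act79B had no settled direction. Their log2 fold changes ranged from -0.0811 to 0.0357 (kirre), from -0.0756 to 0.05 (sns) and from -0.5787 to 0.1958 (Act79B) in the fits that left out 1 library. The summed contractile level was 1048 CPM at 24 hr APF and 1266 CPM at 28 hr APF without the actins, and 194 and 294 CPM without the 5 genes highest by CPM, since fewer genes are summed. Leaving out a library kept the full sum between 2276 and 2455 CPM at 24 hr APF and between 2565 and 2593 CPM at 28 hr APF. With the length of the longest transcript, levels of Tm1 were 3.21, of tmod 1.77, of Zasp66 1.57 and of Mef2 1.52 times as high. Replicate numbers did not mark pairs (correlations of deviations -0.16, 0.16, -0.22 and 0.14, with 2 of 4 libraries at 24 hr APF best matched by their own number). Under the replicate block, 3175 genes, 4 myogenic and fusion genes and 15 contractile genes were called. Depth limits Mhc, TpnC41C, Act79B, Act88F, Unc-89 and Prm, with at most 124 reads in any library.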
